A study of Sminthopsis crassicaudata with 9 samples.

Results

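The collagen genes of the fat-tailed dunnart (Sminthopsis crassicaudata), a small carnivorous marsupial, were described in the face of newborn pouch young. Members are the gene models of the count table whose symbol is COL, a number, A and a number, which gave 38 genes of 21703 models. Counts could be used for 21692 models, all members among them. All samples came from 1 tissue on the day of birth, with no treatment and no second genotype, so no condition was compared with another. The histone marks H3K4me3 and H3K27ac were measured by ChIP-seq in 2 replicates each, with input DNA of the same pool. The labels give 26 and 27 heads for the pools, from which the facial prominences were taken without tongue, neural tube or eye. RNA was measured in 3 libraries, each a pool of 2 young, called FP1, FP2 and FP3. Pools hold a mixture of cell types, and with bulk RNA fewer cells of a type and less RNA per cell cannot be told apart.

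Collagens are secreted proteins whose chains wind around each other into a rod. Fibrillar collagens form the load-bearing fibres of skin, bone and tendon, and the cartilage set belongs to the skeleton laid down before bone. The fibrillar and FACIT classes below leave out the chains of the cartilage set, which is grouped by tissue. Network collagens build sheets, among them the basement membrane under epithelia and around vessels and muscle fibres. FACIT collagens sit on the surface of fibrils, beaded-filament collagens link cells to the matrix, and transmembrane collagens stay anchored in the cell membrane. H3K4me3 marks promoters in use or ready for use. H3K27ac marks active promoters and active enhancers, the distal elements that raise transcription.

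The RNA libraries held between 16096971 and 17419099 counts on gene models. Levels are given as TPM: counts divided by exon length and scaled to the same total in each library. Values below are given in the order FP1, FP2, FP3, with mean ± SD over the 3 libraries. Marker lists were read as a check of the tissue. All 8 facial mesenchyme markers, 6 of 7 modelled skeletal muscle markers and all 5 modelled basal epidermis markers were above 1 TPM in each library. Of the lens and retina list, CRYAA, a lens crystallin, was above 1 TPM in every library with 4.33, 3.62 and 2.56 TPM, although eye primordia were removed, while BFSP1 was at most 0.0932 TPM and CRX was at 0. None of the 3 modelled liver markers was above 1 TPM in all libraries. The summed muscle markers stood at 18693, 14702 and 20868 TPM, the highest sum of any marker list read here.

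Most collagen genes were transcribed. Of the 38 members 32 were above 1 TPM in all 3 libraries, or 84.2%, against 56.5% of all gene models. Every member has a gene symbol, and of the 14158 models with a symbol 10665 were above that limit. Above 10 TPM in all 3 libraries stood 24 members, or 63.2%, against 35.2% of all models. For that limit the share over models with a symbol was not computed. The median member had a mean of 25.6 TPM, against 3.83 TPM over all models and 12.8 TPM over the 14158 models with a gene symbol. Without FP2 the median member was at 16.7 TPM. Together the 38 genes held 0.599%, 0.969% and 0.508% of all TPM in FP1, FP2 and FP3. COL1A1, COL1A2 and COL3A1 alone made up 59.1%, 57.6% and 51.2% of that collagen RNA.

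**Figure D1:**
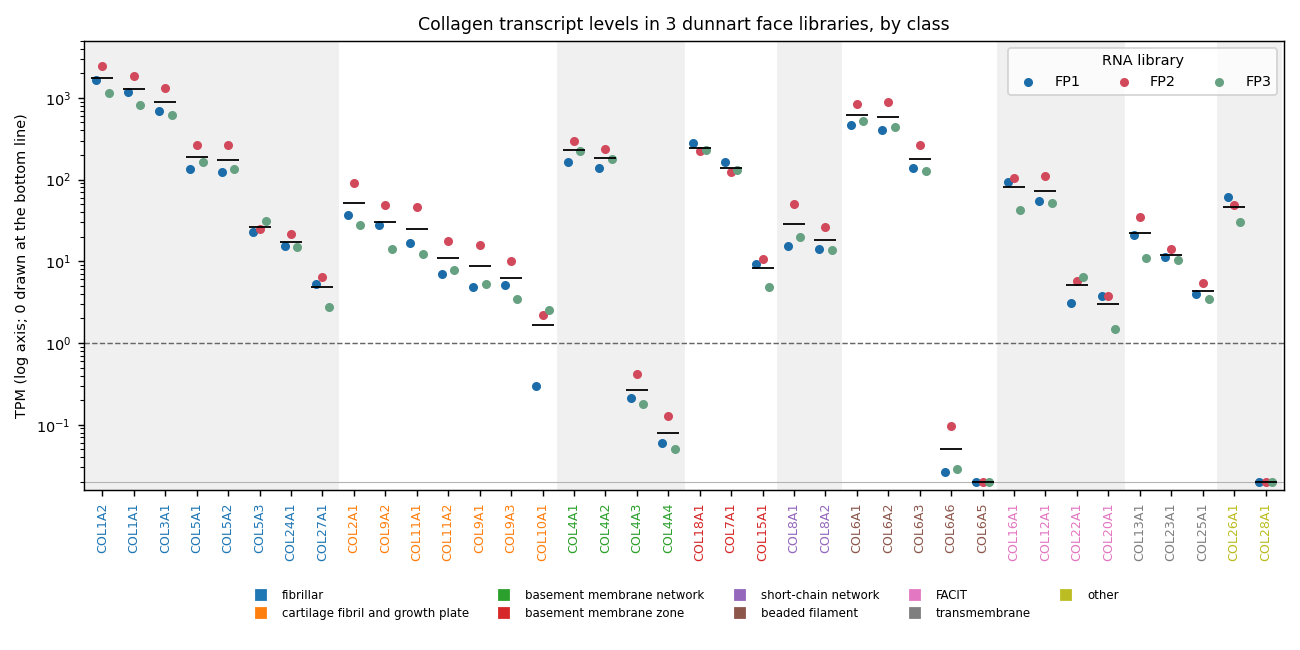
TPM on a log axis for each of the 38 collagen genes, coloured by class along the x axis, with a dot for each RNA library, a bar at the mean and a dashed line at 1 TPM; genes at 0 are drawn on the bottom line. The type I, III and VI chains lie at the top, and COL4A3, COL4A4, COL6A6, COL6A5 and COL28A1 are drawn below 1 TPM in every library. The 0 of COL28A1 rests on a model with 192 bp of exon.

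All 8 fibrillar genes were expressed, and their summed level was 3840, 6166 and 2950 TPM. COL1A2, the alpha2 chain of type I collagen in bone and skin, was the highest collagen at 1653, 2425 and 1156 TPM (1744 ± 640), rank 97 of all models. COL1A1, the alpha1 chain, had 1188, 1827 and 821 TPM (1279 ± 509). COL3A1, the chain of the thin type III fibrils of skin and vessel walls, had 699, 1328 and 625 TPM (884 ± 386). For each of these genes FP2 was highest and FP3 lowest.

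Type V collagen nucleates type I fibrils and sets their width. COL5A1 had 133, 268 and 162 TPM (188 ± 70.9). COL5A2 had 123, 265 and 137 TPM (175 ± 78.5). COL5A3, a chain found in only some type V molecules, was much lower and differed in order, with 22.7, 24.7 and 31.5 TPM (26.3 ± 4.58). The more distant fibrillar chains, COL24A1 and COL27A1, had means of 17.4 ± 3.70 and 4.83 ± 1.87 TPM.

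The cartilage genes were lower by more than a factor of 10 in sum, at 98.2, 231 and 73.0 TPM. COL2A1, the main collagen of cartilage fibrils, had 36.4, 90.9 and 27.6 TPM (51.6 ± 34.3). Its partner chains in the fibril, COL11A1 and COL11A2, followed. COL11A1 had 16.7, 45.6 and 12.2 TPM (24.8 ± 18.2), and COL11A2 had 7.03, 17.7 and 7.79 TPM (10.8 ± 5.94). Type IX collagen coats these fibrils. COL9A2 had 27.8, 48.7 and 14.2 TPM (30.2 ± 17.4), COL9A1 had 4.86, 15.9 and 5.32 TPM (8.68 ± 6.22), and COL9A3 had 5.15, 10.2 and 3.43 TPM (6.24 ± 3.49). All 6 were highest in FP2. COL10A1, the collagen of hypertrophic cartilage in growth plates, had 0.294, 2.19 and 2.50 TPM, from 8, 49 and 61 counts. It was therefore above 1 TPM in FP2 and FP3 but not in FP1. NT5DC1 overlaps it on the opposite strand at 19.9 TPM, and the counting was stated to use strand.

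Of the type IV chains that form the basement membrane sheet, COL4A1 and COL4A2, the pair of nearly all basement membranes, were high. COL4A1 had 163, 299 and 225 TPM (229 ± 68.1) and COL4A2 had 138, 240 and 180 TPM (186 ± 51.1). COL4A3 and COL4A4, chains of the kidney glomerulus and inner ear, were far lower. COL4A3 had 0.215, 0.413 and 0.179 TPM from 12, 19 and 9 counts, and COL4A4 had 0.0604, 0.128 and 0.0504 TPM from 4, 7 and 3 counts. No model carries the symbol COL4A5 or COL4A6, and these chains were not analysed here.

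Next to the basement membrane, most of the RNA came from COL18A1 and COL7A1. COL18A1, the source of the fragment endostatin, had 278, 221 and 233 TPM (244 ± 30.3). COL7A1, the anchoring fibril that fixes epidermis to dermis, had 166, 124 and 130 TPM (140 ± 22.9). Both were highest in FP1 and lowest in FP2. COL15A1, found around muscle fibres and capillaries, had 9.21, 10.5 and 4.85 TPM (8.20 ± 2.98).

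Type VI collagen forms beaded filaments around most cells of connective tissue and muscle. COL6A1 had 470, 839 and 526 TPM (612 ± 199), COL6A2 had 407, 891 and 442 TPM (580 ± 270), and COL6A3 had 139, 266 and 126 TPM (177 ± 77.2). The chains that can replace COL6A3 were nearly absent from these libraries. COL6A6 had 2, 6 and 2 counts, or 0.0261, 0.0952 and 0.0291 TPM. COL6A5 had 0 counts in each library, and 3 counts, the limit that a count of 0 allows, would be 0.0321, 0.0389 and 0.0357 TPM. These limits cover counting error only.

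The short-chain collagens of type VIII, which make lattices under the endothelium, had similar levels. COL8A1 had 15.3, 49.9 and 19.6 TPM (28.3 ± 18.8) and COL8A2 had 14.3, 26.5 and 13.8 TPM (18.2 ± 7.20).

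In the FACIT class COL16A1, of skin and cartilage, had 93.6, 106 and 42.1 TPM (80.5 ± 33.7) and COL12A1, a collagen of tendon, fascia and periosteum, had 54.1, 111 and 51.9 TPM (72.3 ± 33.4). COL22A1, which marks the junction of muscle and tendon, rested on an exon model of 1396 bp and had 3.08, 5.66 and 6.51 TPM (5.08 ± 1.79). It was highest in FP3, as was the summed level of the muscle markers, and the part of muscle in it was not tested. COL20A1 had 3.74, 3.72 and 1.49 TPM (2.98 ± 1.29).

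Among the transmembrane collagens COL13A1, found at neuromuscular and cell-matrix junctions, had 21.0, 34.4 and 10.8 TPM (22.1 ± 11.8). COL23A1 had 11.1, 14.3 and 10.5 TPM (12.0 ± 2.05), and COL25A1, which muscle makes for its motor nerves, had 3.98, 5.49 and 3.45 TPM (4.31 ± 1.06). Outside these classes COL26A1 had 60.4, 48.5 and 29.9 TPM (46.2 ± 15.4). COL28A1 had 0 counts, but its model holds only 192 bp of exon, and 3 counts on it would be 1.72, 2.09 and 1.92 TPM, which is above 1 TPM in each library. COL14A1, COL17A1, COL19A1 and COL21A1 have no model of that symbol in the table and were not analysed here.

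The chains of each collagen type were set against each other within each library. COL1A1 over COL1A2 was 0.719, 0.753 and 0.711 (0.728 ± 0.0229), so this ratio changed little while both levels changed by more than a factor of 2 between FP2 and FP3. COL4A1 over COL4A2 was 1.18, 1.25 and 1.25 (1.23 ± 0.0409). COL5A1 over COL5A2 was 1.08, 1.01 and 1.19 (1.09 ± 0.0891), and COL6A1 over COL6A2 was 1.15, 0.942 and 1.19 (1.09 ± 0.133). For the type V and type VI pairs the ratio lay within about 1 SD of equality.

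Other chains were unequal. COL6A3 over COL6A1 was 0.296, 0.317 and 0.241 (0.284 ± 0.0394), a value that rests on the length of the COL6A3 model, since without division by length the mean was 0.734. COL11A1 over COL11A2 was 2.37, 2.58 and 1.56 (2.17 ± 0.539). COL9A1 over COL9A2 was 0.175, 0.326 and 0.374 (0.291 ± 0.104) and COL9A3 over COL9A2 was 0.185, 0.208 and 0.241 (0.212 ± 0.0279). COL9A2 was thus the highest type IX chain in every library, with COL9A1 and COL9A3 closer to each other. COL5A3 over COL5A1 was 0.170, 0.0923 and 0.194 (0.152 ± 0.0533). COL8A1 over COL8A2 was 1.07, 1.88 and 1.42 (1.46 ± 0.407), the widest range in relation to its mean among the pairs of similar level.

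The spread between libraries was wider for collagens than for the median gene. The median coefficient of variation of the 32 expressed members was 39.7%, against 21.5% over all 12250 expressed genes. FP2, a library picked after the values were seen, was the highest for 26 of the 32, or 81.2%, against 61.2% of all expressed genes. FP1 was highest for 4 members and FP3 for 2. On the log2 scale, FP2 over the mean of FP1 and FP3 had a median of 0.82 over the members and of 0.28 over all expressed genes, a gap of 0.55. By this measure 23 of 32 members, or 71.9%, were more than 1.5 times higher in FP2, against 21.3% of all expressed genes. After scaling by TMM, a method that sets the bulk of genes equal between libraries, 24 of 32 were highest in FP2, against 31.2% of all expressed genes.

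**Figure D2:**
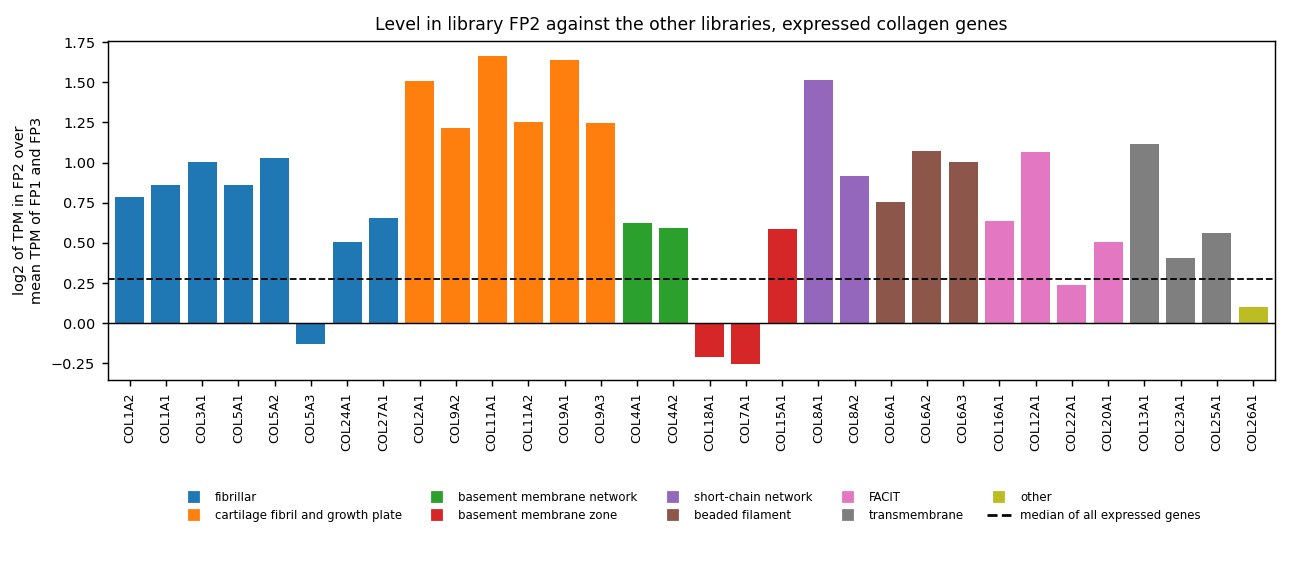
The log2 ratio of the TPM in FP2 to the mean TPM of FP1 and FP3, a bar for each of the 32 expressed collagen genes, coloured by class, with a dashed line at the median of all expressed genes (0.28). The 6 expressed cartilage genes and COL8A1 stand between 1.21 and 1.66, and COL5A3, COL18A1 and COL7A1 are below 0.

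The ratio was largest for cartilage chains and COL8A1. COL11A1 had a log2 ratio of 1.66, COL9A1 of 1.64, COL8A1 of 1.51 and COL2A1 of 1.51. COL1A1 had 0.86, COL3A1 1.00 and COL6A2 1.07. At the other end COL7A1 had -0.26, COL18A1 -0.21 and COL5A3 -0.13. Markers of several cell types also differed between these libraries. Of all expressed genes 61.2% were highest in FP2 in TPM and 31.2% after TMM scaling. The marker counts below are in TPM and were not repeated after that scaling. All 6 modelled osteoblast markers were highest in FP2, with a summed level of 272, 610 and 150 TPM. They were led by SPP1 (70.3, 223 and 27.2 TPM) and IBSP (70.9, 231 and 14.1 TPM), both proteins of bone matrix. RUNX2 (18.04, 19.15 and 13.43 TPM) and ALPL (99.5, 116 and 88.6 TPM) were closer between FP1 and FP2. Of the 7 modelled chondrocyte markers 5 were highest in FP2, summing to 51.8, 86.4 and 60.3 TPM. The summed basal epidermis markers were 4546, 3195 and 6096 TPM, of which KRT14 held 4372, 2965 and 5840 TPM. The other modelled markers of that list, TP63, ITGB4, ITGA6 and LAMB3, were lowest in FP1. The summed muscle markers were lowest in FP2. Facial mesenchyme markers summed to 1143, 1397 and 911 TPM, with 5 of 8 highest in FP2, near the share of all expressed genes. Among these 5, DCN had 342, 569 and 365 TPM and LUM 161, 242 and 66.7 TPM, and both code for matrix proteoglycans. TWIST1 and DLX5 were highest in FP1 and MSX1 in FP3. The 6 modelled endothelium markers summed to 116, 85.7 and 78.7 TPM, none of them highest in FP2. The part of these cell types in the collagen levels was not tested.

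A reproducible peak is a peak at q under 0.05 of replicate 1 that shares at least 50% of either length with a peak of replicate 2, and its fold is enrichment over input. Within 1 kb of the transcription start site (TSS), 32 of the 38 members, or 84.2%, had H3K4me3, against 67.7% of all models. The same 32 members had H3K27ac there, against 71.5% of all models. Of the 14158 models with a gene symbol, which every member has, 11769 had H3K4me3 there and 12159 had H3K27ac. Against the models with a symbol, the shares of the collagens were near the background. The 32 members rest on 30 distinct H3K4me3 peaks, because 2 pairs of genes share a peak. Median H3K4me3 fold at the TSS was 35.9 for the members and 43.4 for all models with such a peak, and median H3K27ac fold was 24.0 and 23.4. The lists hold no read totals, so the depth behind a single peak is unknown.

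**Figure D3:**
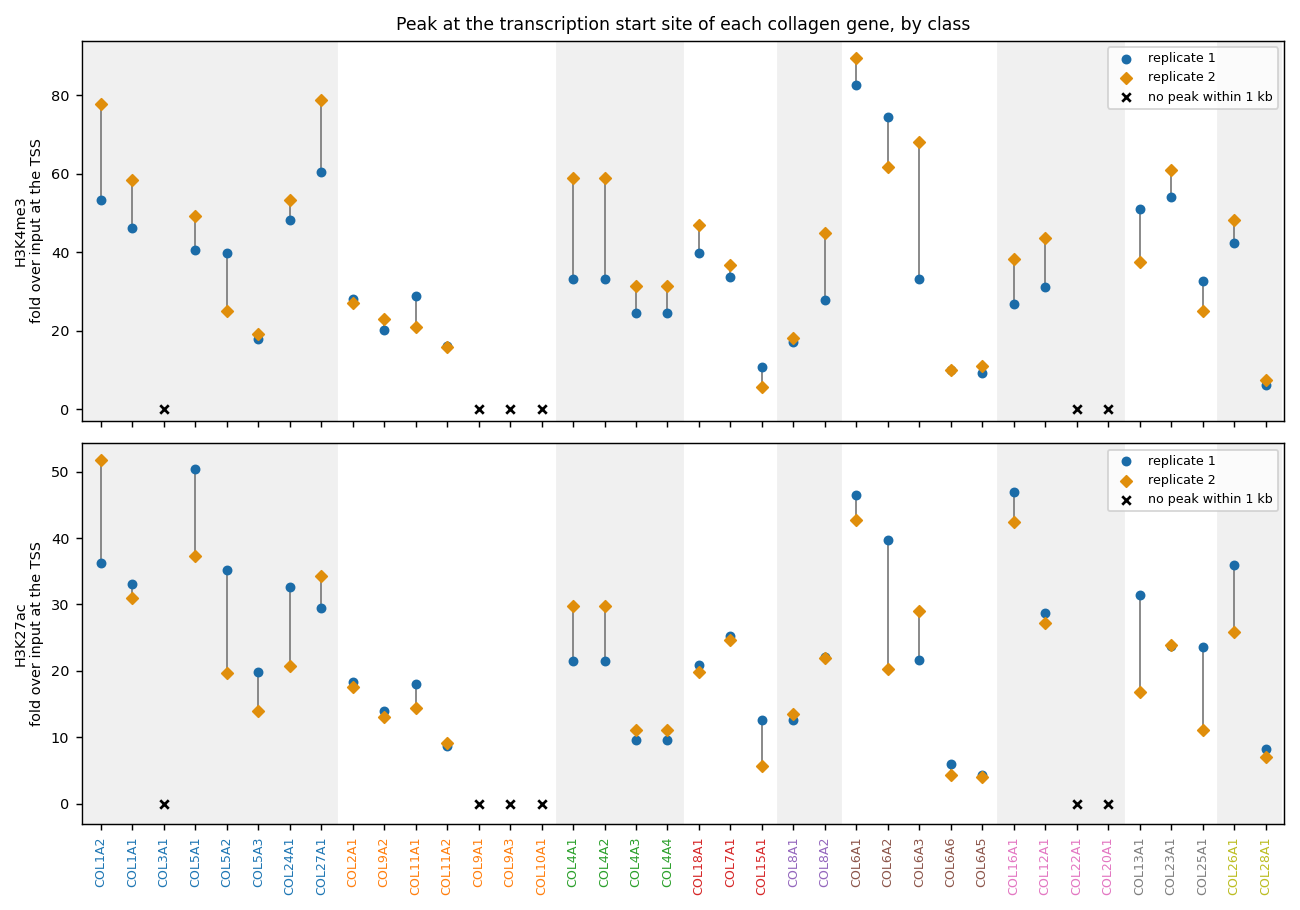
Fold over input of the strongest reproducible peak within 1 kb of each collagen TSS, H3K4me3 above and H3K27ac below, with a circle for replicate 1, a diamond for replicate 2, a line between them and a cross where there is no peak. COL6A1 has the highest H3K4me3 folds, 82.6 and 89.4, and COL3A1, COL9A1, COL9A3, COL10A1, COL22A1 and COL20A1 have crosses for both marks.

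The promoters of the leading gene of each class were compared by replicate. COL1A2 (scaffold00093_pilon_pilon, 3011096 to 3039965, minus strand) had H3K4me3 folds of 53.4 and 77.8 in replicates 1 and 2 and H3K27ac folds of 36.3 and 51.7. COL6A1 had 82.6 and 89.4 for H3K4me3 and 46.5 and 42.7 for H3K27ac. In both replicates these values lay above the medians of 43.4 and 23.4 over all models with a peak. COL16A1 had 26.9 and 38.4 for H3K4me3, lower than COL1A2 in both replicates, and 46.9 and 42.3 for H3K27ac, of similar size. COL18A1 had 39.9 and 47.0 for H3K4me3 and 20.9 and 19.9 for H3K27ac. COL13A1 had 51.0 and 37.4 for H3K4me3 and 31.4 and 16.9 for H3K27ac, a spread between replicates of nearly a factor of 2 for the second mark. COL26A1 had 42.4 and 48.3 for H3K4me3 and 36.0 and 25.9 for H3K27ac, with its peak edge 0.357 kb from the TSS of the model. COL8A1 was weaker, with 17.2 and 18.2 for H3K4me3 and 12.6 and 13.5 for H3K27ac. COL2A1 had 28.2 and 27.1 for H3K4me3 and 18.3 and 17.5 for H3K27ac.

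Some collagen promoters carried a long stretch of H3K4me3. The peak at COL18A1 covered 12924 bp, that at COL1A2 11400 bp and that at COL6A2 10634 bp, against a median of 2498 bp and a 95th percentile of 8613 bp over all genes with a TSS peak. COL1A1 followed with 8078 bp. The median of the 32 members was 3556 bp. The shortest were COL15A1 with 711 bp and COL8A1 with 1002 bp. COL15A1 also had a low fold, 10.8 and 5.61 in the replicates, and a level of 8.20 TPM.

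Across the 32 members with a peak, mark and transcript level went together. Spearman's correlation with mean TPM was 0.62 for the H3K4me3 fold and 0.74 for the H3K27ac fold, against 0.54 (n = 14682) and 0.57 (n = 15510) over all models with the peak. These are descriptions across genes measured in the same pools and libraries, and genes that share a peak are not separate points.

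Head-to-head genes shared a promoter. COL4A1 and COL4A2 (scaffold00053_pilon_pilon) start 190 bp apart in opposite directions, and a single H3K4me3 peak with folds of 33.1 and 58.8 and a single H3K27ac peak with folds of 21.4 and 29.7 cover both starts. COL4A3 and COL4A4 (scaffold00001_pilon_pilon) start 66 bp apart in the same layout, under an H3K4me3 peak with folds of 24.5 and 31.3 and an H3K27ac peak with folds of 9.61 and 11.1. The transcript levels of these pairs differed widely: COL4A1 had 229 TPM and COL4A3 0.269 TPM in mean.

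The promoter mark was present at some genes with little or no RNA. Of the 6 members not above 1 TPM in all libraries 5 had H3K4me3 at the TSS, against 41.0% of all models not above 1 TPM. The background includes models without a gene symbol. COL4A3 and COL4A4 are among the 5 and share a peak. The others were COL6A6, with folds of 9.96 and 10.2, COL6A5, with 9.35 and 11.1, and COL28A1, with 6.11 and 7.50. COL6A5 and COL6A6 lie on scaffold00180_pilon_pilon in the same direction, with starts 132 kb apart, and each has its own peak. COL28A1 has 8 other TSS within 100 kb.

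Conversely 5 of the 32 expressed members, or 15.6%, had no reproducible H3K4me3 within 1 kb of the TSS, against 11.8% of all expressed genes. They were COL3A1, COL9A1, COL9A3, COL22A1 and COL20A1. COL10A1, below the limit in FP1, had none either. Start sites are those of Tasmanian devil models placed on the dunnart assembly, and whether the start of a model is the start used in the face was not tested.

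COL3A1 (scaffold00009_pilon_pilon, 23638254 to 23701810, minus strand) was the extreme case. At 884 TPM in mean it had no peak of either mark in either replicate within 30 kb of its TSS, in lists that reach an unadjusted p of 0.01. The nearest H3K4me3 peaks lay 41.1 kb into the gene in replicate 1 and 40.9 kb in replicate 2, with folds of 3.49 and 3.08. The nearest H3K27ac peaks lay 41.1 and 37.1 kb away. Of 12250 expressed genes only 32, or 0.261%, had no peak of any of the 4 lists within 30 kb, and COL3A1 had the highest TPM among models with none. Its neighbour COL5A2, which ends 14.0 kb from the end of COL3A1 and runs towards it, had H3K4me3 folds of 39.9 and 25.1 at its own TSS. Whether reads can be placed uniquely around the start of COL3A1 was not tested.

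The other expressed members without the mark had weak peaks nearby or inside the gene. COL9A1 had a replicate 1 H3K4me3 peak of fold 4.58 with its edge 0.131 kb from the TSS and none in replicate 2 within 32.2 kb. Its strongest reproducible H3K4me3 peak had its summit 34.3 kb inside the gene, with folds of 6.63 and 7.50, next to H3K27ac with folds of 9.54 and 9.80. In COL9A3 a reproducible H3K4me3 peak lay 2.06 kb from the TSS with a mean fold of 3.86. COL22A1 had its nearest H3K4me3 peaks 44.6 and 44.4 kb away, and COL20A1 had them 7.39 and 7.52 kb away with folds of 3.08 and 2.29.

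**Figure D4:**
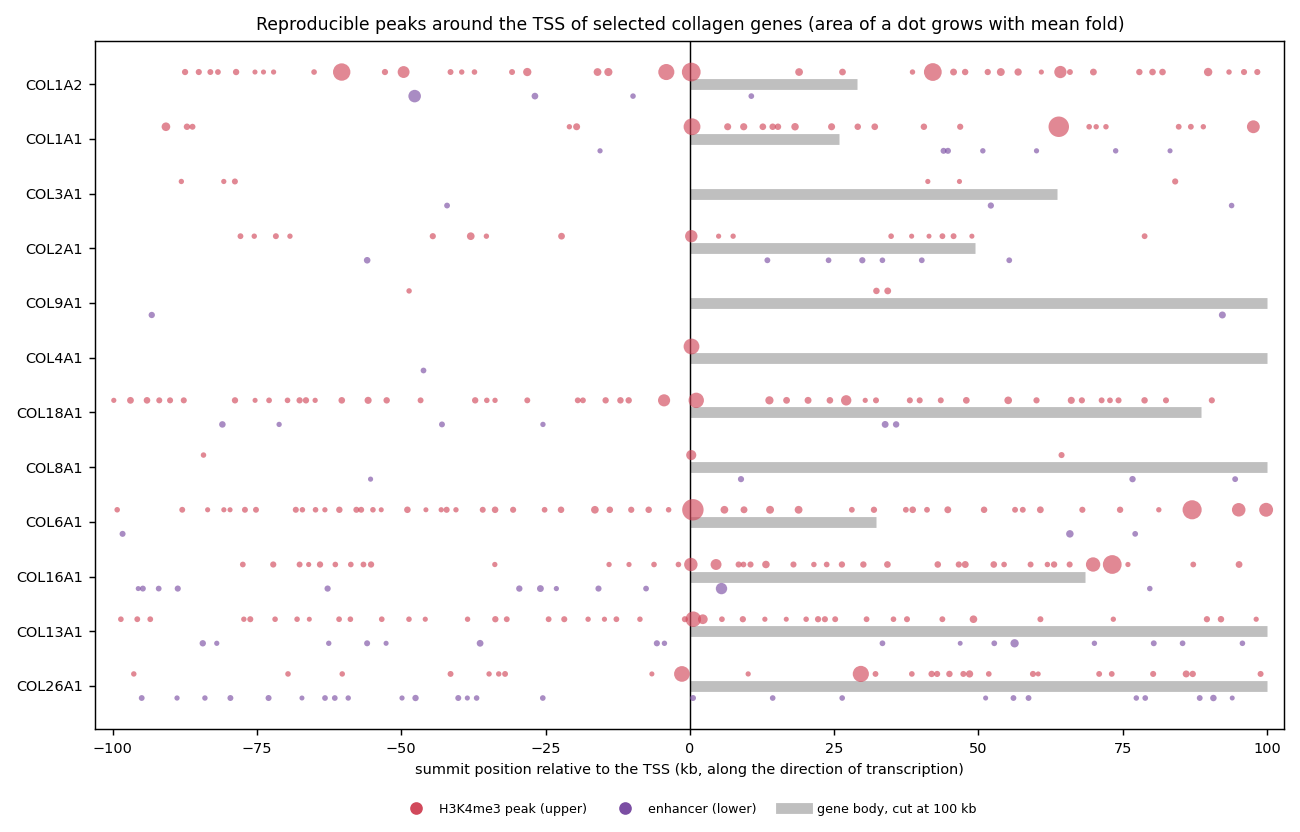
Reproducible H3K4me3 peaks (upper dots) and enhancers (lower dots) by distance of the summit from the TSS in kb along the direction of transcription, for 12 collagen genes, with the gene body in grey and dot area growing with mean fold. COL1A2, COL1A1 and COL6A1 have a large H3K4me3 dot at the start, and COL3A1 and COL9A1 have none there.

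A putative enhancer is here a reproducible H3K27ac peak that shares no base with reproducible H3K4me3. Within 100 kb of the TSS, 34 of 38 members had at least 1, or 89.5%, against 92.0% of all models, so the share of collagens was near the background. Within 50 kb the share was 68.4%, from 26 members, against 80.4% of all models. The median number was 4 for collagens and 5 for all models. Summed over members there were 266, of which 256 were distinct and 139 were nearer to the TSS of the member than to any other TSS. COL11A1, COL12A1, COL22A1 and COL25A1 had none.

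The gene body gave another count. An enhancer with its summit in the body was found in 30 of 38 members, or 78.9%, against 40.1% of all models. Collagen bodies were long, with a median of 110 kb against 16.2 kb over all models. Per 100 kb of body, members held 3.49 enhancers and all models 3.06, so that per length the values were close. All 185 enhancers in member bodies were distinct, and 98 of them lay more than 100 kb from the TSS of their gene. No member had its TSS within 100 kb of the end of the scaffold as far as peaks and models reach.

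**Figure D5:**
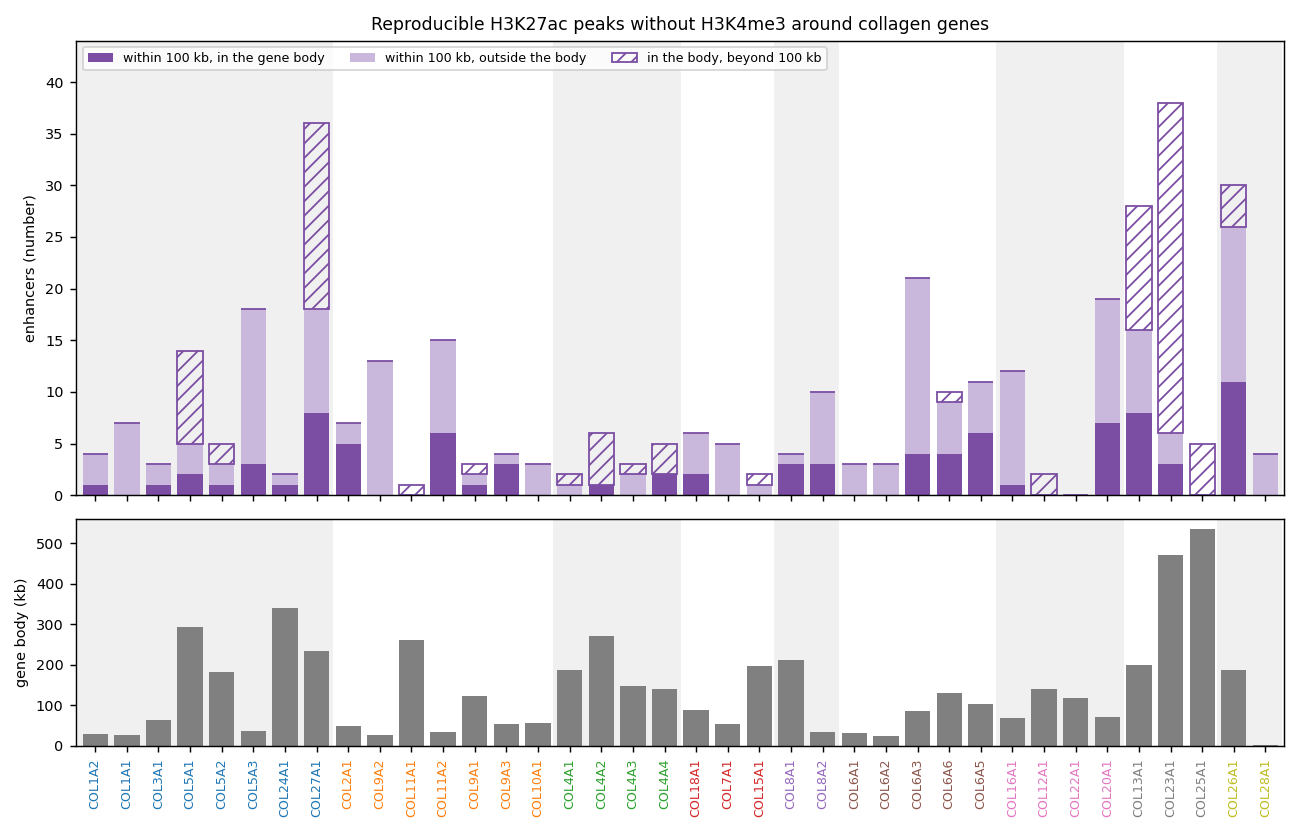
Number of enhancers for each collagen gene, split into those within 100 kb of the TSS in the body (dark), within 100 kb outside the body (light) and in the body beyond 100 kb (hatched), above the length of each gene body in kb. COL23A1, COL27A1, COL26A1 and COL13A1 have the tallest bars, and COL22A1 has no bar.

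The enhancer counts did not follow the RNA levels. COL26A1 had the most within 100 kb, 26, of which 11 lay in its body, and a level of 46.2 TPM. COL6A3 had 21, COL20A1 19, COL27A1 and COL5A3 18 each, and COL13A1 16. Of the genes of highest RNA, COL1A2 had 4, COL1A1 7, COL3A1 3, and COL6A1 and COL6A2 3 each. These counts leave out H3K27ac peaks that overlap H3K4me3. With those included, COL1A2 had 32 reproducible H3K27ac peaks within 100 kb, COL1A1 27, COL6A1 38, COL6A2 32 and COL3A1 6, against a median of 13 for members and for all models. Peaks nearest to other genes are part of these counts, such as those nearest to CASD1 at COL1A2 and to PPP1R9B at COL1A1. The starts of COL6A1 and COL6A2 lie 90.4 kb apart, so their windows share peaks. Spearman's correlation between the number within 100 kb and mean TPM was 0.003 over the 38 members and 0.20 over all models. COL23A1 had 35 in its body of 472 kb, COL27A1 26 in 233 kb and COL13A1 20 in 199 kb. COL5A1 had 11, COL4A2 6, COL5A2 3 and COL24A1 1 in a body of 340 kb. COL1A1, COL6A1, COL6A2, COL7A1 and COL9A2, with bodies between 23.6 and 53.5 kb, had none inside, and neither had COL10A1, COL22A1 or COL28A1.

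Single enhancers near members had a median fold of 4.45 over the 256, against 4.22 over all 69124 enhancers. Among the strongest with like folds in both replicates was a peak 33.3 kb before COL6A3, with folds of 17.2 and 11.6, which lay nearest to the start of another gene, MLPH. A peak 22.1 kb into COL8A2 had folds of 10.9 and 13.6 and also lay nearest to the start of another gene, ADPRS. A peak 56.3 kb into COL13A1 had folds of 11.4 in both replicates. COL6A3, COL8A2 and COL13A1 had levels of 177, 18.2 and 22.1 TPM. In COL2A1 5 enhancers lay in the body, between 13.4 and 40.2 kb from the TSS, with mean folds between 4.19 and 5.54, and another lay 55.9 kb before it with folds of 6.88 and 6.0. All 7 enhancers within 100 kb of COL2A1 were nearest to its own start. The 1 enhancer within 100 kb of COL4A1 and of COL4A2 is the same peak, in the body of COL4A2, with folds of 3.21 and 5.80. Folds differed by more than 3 times between the replicates for 4 of the 256 distinct enhancers. An example is the peak 47.7 kb before COL1A2, with folds of 4.84 and 51.8, where the peak of replicate 1 has 1316 bp and its partner in replicate 2 has 3674 bp. The others lie near COL5A3, COL8A2 and COL16A1, and there the partner in replicate 2 has between 8454 and 14823 bp. Near COL16A1 and COL5A3 the fold of the partner, 42.3 and 13.9, equals the replicate 2 H3K27ac fold at the TSS of that gene. Before COL1A2, the fold of 51.8 is also the replicate 2 fold of an H3K27ac peak 49.6 kb before the TSS, which overlaps H3K4me3. Equal folds would arise if 1 replicate 2 peak were the partner of both. Positions of the partners were not compared, so whether these enhancers are parts of such longer peaks was not tested.

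The genes that modify, export, cut and crosslink collagen were read from a list of 61 genes, of which 57 have a model. The highest and lowest gene of each role are named by mean TPM. Of these 54, or 94.7%, were above 1 TPM in all libraries, against 56.5% of all models. Above 10 TPM were 37, or 64.9%, against 35.2%, and 52, or 91.2%, had H3K4me3 at the TSS, against 67.7%. All genes of the list have a symbol, and the share of models with a symbol above 10 TPM was not computed. Of the 14158 models with a symbol, 10665 were above 1 TPM in all libraries and 11769 had H3K4me3 at the TSS. The median level was 23.1 TPM. FP2, the library picked after the values were seen, was highest for 47 of the 54, or 87.0%, against 61.2% of all expressed genes. After TMM scaling it was highest for 33, or 61.1%, against 31.2%.

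All 10 genes of prolyl hydroxylation, which lets the helix hold at body temperature, were expressed. The highest was PPIB, a prolyl isomerase of that complex, with 488, 439 and 292 TPM, and the lowest P4HA3 with 7.34, 14.2 and 2.28 TPM. Of the lysyl hydroxylases and collagen galactosyltransferases, all 5 expressed, PLOD3 was highest with 109, 134 and 102 TPM and COLGALT2 lowest with 1.57, 4.28 and 1.34 TPM. All 8 chaperone and export genes were above 10 TPM. SERPINH1, the collagen chaperone HSP47, had 680, 756 and 460 TPM, and MIA2 had 10.1, 19.0 and 13.0 TPM and was the 1 gene of that role without H3K4me3 at its TSS.

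Cleavage of the ends of the chains lets fibrils form. PCOLCE, which speeds that cut, had 125, 136 and 67.5 TPM, and PCOLCE2 was the lowest of the 7 expressed genes with 4.80, 4.08 and 3.42 TPM. The 3 modelled lysyl oxidases, which crosslink fibrils, were all above 10 TPM, from LOXL1 with 112, 111 and 55.2 TPM to LOX with 21.1, 34.7 and 28.2 TPM. Of 7 modelled proteoglycans that bind fibrils 4 were expressed. DCN was highest with 342, 569 and 365 TPM, and its H3K4me3 fold at the TSS was 6.08 in mean, against the median of 43.4 over all models with such a peak. FMOD was lowest with 0.150, 0.291 and 0.167 TPM.

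Among the 8 collagen receptors, all expressed, ITGB1, the beta chain shared by the collagen-binding integrins, had 275, 375 and 354 TPM with no H3K4me3 within 1 kb of its TSS. ITGA1 was lowest with 1.59, 3.11 and 1.47 TPM. All 9 transcription factors of the list were expressed and had H3K4me3 at the TSS. CREB3L1, which acts on type I collagen in bone, had the highest mean with 25.4, 27.4 and 16.5 TPM, but CREB3L2, with 15.8, 31.2 and 19.5 TPM, was higher in FP2 and FP3. SOX5, a partner of SOX9 at cartilage genes, was lowest with 1.08, 1.48 and 1.77 TPM.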

How the data were processed

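For ChIP, the authors used cutadapt (1.9.1), Bowtie2 (2.3.5.1) against their own dunnart genome, SAMtools (1.9) and Picard (2.23.1), and called peaks per replicate with MACS2 (2.1.1). In the deposited lists every peak has a ratio to input (its fold), with p-value and q-value as -log10. RNA reads were trimmed with Trimmomatic (0.39) and aligned with HISAT2 (2.21). The authors made counts per gene with featureCounts of Subread (2.0.1) over Tasmanian devil models moved to the assembly with Liftoff, and the deposited counts are unscaled. The counts of 11 models broken over 2 lines were not used.

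TPM, reproducible peaks and distances were computed with Python (3.11.15), numpy (2.4.6), pandas (2.3.3), scipy (1.17.1) and bedtools (2.31.1), and checked on simulated data. Figures were drawn with matplotlib (3.10.9). Edges of peaks within 100 kb of the TSS count, and summits decide the body. TMM scaling used edgeR (4.0.16) in R (4.3.3), as an alternative. No test was made, since every sample is of 1 group. A member counts as expressed above 1 TPM in all 3 libraries. Members, classes and gene lists were chosen with earlier results of these data known. All collagens are named. Values per library are given for the 3 highest of each class, for chains in a ratio and for genes where mark and RNA differ. Peaks per replicate are given for the highest of each class and for pairs with starts within 5 kb, and for each role of the assembly list the highest and the lowest gene is named. FP1, FP2 and FP3 could not be matched to replicate numbers of the labels. A marker gene of the tissue check is not reported here.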

Additional observations from a re-analysis of the deposited data

How the results depend on the processing

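The number of expressed collagens was between 32 and 33 under every alternative, and the number with H3K4me3 at the TSS between 30 and 33. Of 91 alternative values 82 stayed within the spread between libraries or within 1.5 times of the count. For a chain ratio, leaving out 1 of 3 libraries cannot move the mean by a full SD, so those values could not have moved. The median collagen level after TMM, 12.4, is in RPKM and so in another unit than 25.6 TPM. The count of 82 therefore says little about how firm the ratios and the median are. Without division by exon length, the ratios moved to 0.94 for COL1A1 over COL1A2, 1.42 for COL5A1 over COL5A2, 1.38 for COL4A1 over COL4A2, 0.734 for COL6A3 over COL6A1, 2.07 for COL8A1 over COL8A2 and 0.273 for COL9A3 over COL9A2, as exon lengths differ. The median number of enhancers within 100 kb was 2 with a window of 50 kb, as it was when peaks sharing a base with H3K4me3 of either replicate were left out, against a median of 2 over all models in both. Without a ChIP replicate it was between 5 and 6.5. No paired analysis was possible because no groups were compared. With 3 RNA libraries and 2 ChIP pools the spread is poorly known, and p-values were not computed. The scaling by TMM for the collagens and the assembly genes highest in FP2 was chosen after seeing the data.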
